A study of Mus musculus with 16 samples.

Results

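The transcripts of 9 enzymes that make or break down heme were followed in mouse embryonic stem (ES) cells differentiating towards blood, with and without DNA-binding Sp1. The 9 genes were chosen by their roles, 8 of the synthesis pathway (Alas1, Alas2, Alad, Uros, Urod, Cpox, Ppox and Fech) and the breakdown enzyme Hmox1, and they are 9 of 37208 genes and unnamed targets on the array. Each gene is represented by its brightest probe, and all 9 probes were well above background on all 16 arrays, so none was lost to the filter on low values. The arrays are one-color Agilent mouse arrays, with 2 arrays in each of 8 groups of genotype by population, and the values are the log2 intensities deposited by the authors. A difference of 1 on this scale is 2-fold. A comparison passed the test, or was called, if limma's p before adjustment was at most 0.01 and the difference at least 2-fold, with Benjamini-Hochberg adjusted values (over 37154 genes tested) given beside it.

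The Sp1+/+ cells are E14 ES cells, and the Sp1-/- cells are 1 ES cell clone in which both alleles make a truncated Sp1 that lacks the DNA-binding domain. The labels give the strain of both as C57BL/6. Flk1+ cells, which the labels also write as Flk+, were isolated with magnetic beads from embryoid bodies and are mesoderm that still holds the precursors of blood and endothelium. The other 3 populations were sorted from blast culture, on day 2, by surface KIT, CD41 and Tie2. HE1 is the hemogenic endothelium that is KIT+ CD41- Tie2+, HE2 the hemogenic endothelium that is KIT+ CD41+ Tie2+, and progenitors are KIT+ CD41+ Tie2-. HE1, HE2 and progenitors are therefore populations of the same culture, ordered by phenotype and not by time.

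Heme is an iron-containing ring that hemoglobin, cytochromes and other enzymes hold as a cofactor. Its synthesis begins in mitochondria, where an aminolevulinate synthase joins glycine to succinyl-CoA, runs through several steps in the cytosol, and ends in mitochondria, where ferrochelatase inserts iron into protoporphyrin. Alas1 encodes the synthase used in all tissues and Alas2 the synthase of red cell precursors, and the heme that Hmox1 opens yields biliverdin, carbon monoxide and free iron.

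The share of spots well above background ran from 67% to 77.1% over the 16 arrays, and no spot was saturated. Sp1, the targeted gene, was lower in Sp1-/- cells at every stage, with log2 differences of -2.28 (Flk1+ cells), -3.28 (HE1), -2.56 (HE2) and -2.9 (progenitors), past the test each time, and whether its probe lies in the deleted part was not determined here. Of the 9 erythroid markers tested, 7 rose from Flk1+ cells to progenitors in Sp1+/+ and 8 in Sp1-/- cells (4.31% and 5.7% of all genes rose past the test). The log2 of the summed level of the 9 markers was between 12.63 and 13.2 in Flk1+ cells and between 18.55 and 20.83 in progenitors. The 2 Sp1+/+ HE1 arrays were far apart in this sum, at 16.67 and 12.7, and the 2 Sp1+/+ progenitor arrays lay at 18.55 and 19.94. All Sp1+/+ arrays were on 1 slide and all Sp1-/- arrays on the other, so the effect of the slide and that of the genotype cannot be told apart. The series' design text calls the 2 replicates of a group independent biological replicates.

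Promoter windows were taken for 7 of the 9 genes, all but Fech and Hmox1, with 10 windows in all. The 250 bases before the start of Alas1, Alas2 and Cpox are shown (for Alas1, the more distal of 2 windows) because Alas1 and Alas2 encode the same reaction and gave different patterns, and because Cpox carries a pair of overlapping GATA matches. Each is written 5′ to 3′ on the gene's strand in the GRCm38.p6 assembly, with matches to AGATAA or TGATAA, each also with G as the last letter (the core bound by GATA factors), to CCNCNCCC (a Krüppel-like factor motif) and to GGGCGG (the core of an Sp1 site) in capitals, on either strand. The Alas1 window lies at chr9:106247955-106248204 on the minus strand, Alas2 at chrX:150547167-150547416 on the plus strand, and Cpox at chr16:58669958-58670207 on the plus strand.
Alas1: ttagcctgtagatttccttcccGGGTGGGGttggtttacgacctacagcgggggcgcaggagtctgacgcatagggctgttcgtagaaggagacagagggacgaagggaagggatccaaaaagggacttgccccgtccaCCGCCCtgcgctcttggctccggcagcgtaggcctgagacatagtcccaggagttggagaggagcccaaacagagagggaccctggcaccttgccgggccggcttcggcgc
Alas2: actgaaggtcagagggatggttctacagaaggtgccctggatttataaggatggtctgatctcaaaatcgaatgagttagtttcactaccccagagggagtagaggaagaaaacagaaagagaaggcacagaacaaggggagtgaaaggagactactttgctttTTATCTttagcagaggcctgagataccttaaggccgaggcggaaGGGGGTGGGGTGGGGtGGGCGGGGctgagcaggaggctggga
Cpox: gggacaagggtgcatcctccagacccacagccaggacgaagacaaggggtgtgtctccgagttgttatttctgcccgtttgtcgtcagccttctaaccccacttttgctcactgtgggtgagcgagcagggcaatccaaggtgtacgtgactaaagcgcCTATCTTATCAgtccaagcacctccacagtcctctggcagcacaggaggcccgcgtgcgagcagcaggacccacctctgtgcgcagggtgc

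The Alas2 window held 1 GATA match, 86 bases before the start, with 4 CCNCNCCC matches and 1 GGGCGG match, which overlaps one of these. The Alas1 window held no GATA match, 1 CCNCNCCC match and 1 GGGCGG match. The Cpox window held 2 GATA matches, 91 and 86 bases before the start, and neither of the other motifs. GATA matches occurred in 3 of the 10 windows (Alas2, Cpox and 1 of 2 Uros windows), against 26.6% of 32817 promoter windows of the same length. CCNCNCCC occurred in 6 of 10 against 45.9%, and GGGCGG in 6 of 10 against 32.7%. The 10 windows are not independent. The 2 Alad windows overlap and share matches to both of these motifs, which are counted in each window, and the 2 Alas1 windows also overlap. These are matches of letters only, and binding was not measured here.

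**Figure D1:**
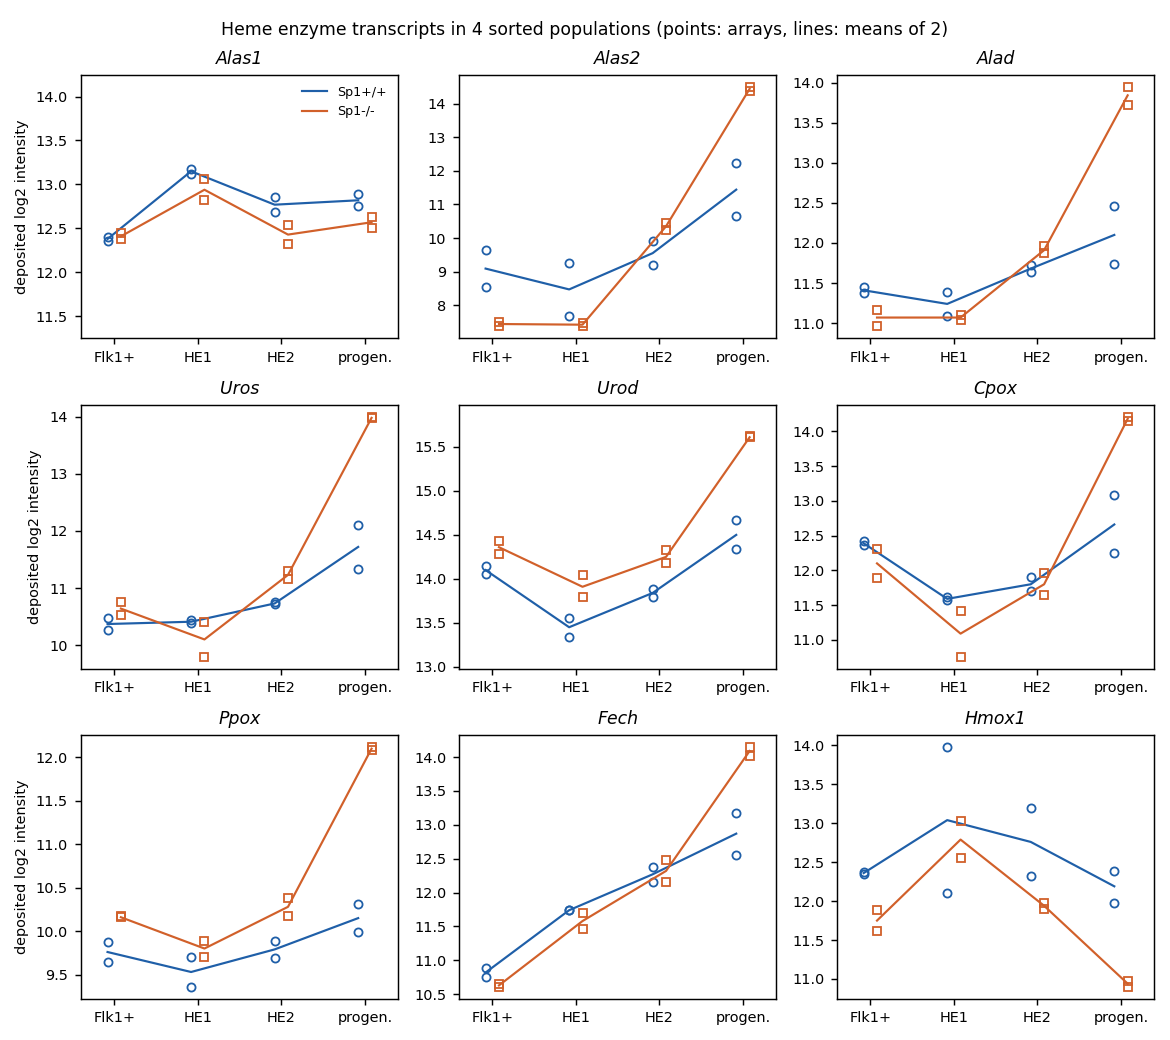
Deposited log2 intensity of the 9 enzymes (vertical axis, range differing between panels) in Flk1+ cells, HE1, HE2 and progenitors (horizontal axis), for Sp1+/+ (blue circles) and Sp1-/- (orange squares). Each point is 1 array and each line joins the means of 2 arrays. Alas2, Alad, Uros, Urod, Cpox, Ppox and Fech were highest in Sp1-/- progenitors, whereas Alas1 was highest in Sp1+/+ HE1 and Hmox1 lowest in Sp1-/- progenitors.

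Alas2, the red cell synthase, had the widest range of the 9 enzymes. Its log2 intensities in Sp1+/+ Flk1+ cells, HE1, HE2 and progenitors were 8.53 and 9.64, 9.27 and 7.68, 9.91 and 9.20, and 10.65 and 12.23. The Sp1-/- values in the same order were 7.37 and 7.51, 7.38 and 7.46, 10.45 and 10.25, and 14.51 and 14.37. The Sp1-/- replicates lay within 0.20 of each other in every population, while the Sp1+/+ replicates were up to 1.59 apart, and both Sp1-/- progenitor arrays exceeded all other arrays. In order of their means, the 2 lowest groups, Sp1-/- HE1 and Sp1-/- Flk1+, overlapped each other, Sp1+/+ HE1 lay just above them and overlapped Sp1+/+ Flk1+, which overlapped Sp1+/+ HE2, and Sp1-/- HE2, Sp1+/+ progenitors and Sp1-/- progenitors each lay above the group before without overlap.

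Alas2 first passed the test between HE1 and HE2 in Sp1-/- cells and between HE2 and progenitors in Sp1+/+ cells, although the HE1 to HE2 change itself did not differ past the test between genotypes (1.85, 95% interval 0.09 to 3.61). For the Sp1-/- cells the change from Flk1+ cells to HE1 was -0.02 (SE 0.56), and Alas2 then rose 7.62-fold from HE1 to HE2 (2.93, SE 0.56, adjusted p = 0.00398) and rose 17-fold from HE2 to progenitors (4.09, SE 0.56, adjusted p = 0.000693), a total of 128-fold from Flk1+ cells to progenitors (7, SE 0.56, adjusted p = 2.53e-06). In Sp1+/+ cells the changes from Flk1+ cells to HE1 and from HE1 to HE2 were -0.61 and 1.08, neither past the test, and Alas2 rose 3.69-fold from HE2 to progenitors (1.88, SE 0.56, adjusted p = 0.12) and 5.12-fold from Flk1+ cells to progenitors (2.35, SE 0.56, adjusted p = 0.0104). The Sp1+/+ rise from HE2 to progenitors was no longer past the test without progenitor replicate 2, at 1.1 on the log2 scale, without HE2 replicate 2, at 1.53, without either Sp1-/- progenitor array, with the scanner software's processed signal, at 1.91, or with only the arrays compared in the fit. The rise from Flk1+ cells to progenitors was not past it either without progenitor replicate 2, at 1.56, without Flk1+ replicate 1, at 1.80, or with only the arrays compared.

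Alas1, the synthase of all tissues, varied little on its brightest probe. Its log2 intensities in Sp1+/+ cells were 12.36 and 12.40 (Flk1+ cells), 13.12 and 13.18 (HE1), 12.69 and 12.86 (HE2), and 12.76 and 12.89 (progenitors). Its Sp1-/- values were 12.38 and 12.45, 13.06 and 12.82, 12.32 and 12.54, and 12.51 and 12.63 in the same order. HE1 was the highest population in both genotypes, and all 16 arrays lay between 12.32 and 13.18. The difference between HE1 and Flk1+ cells was 0.77 (SE 0.11, adjusted p = 0.000348) in Sp1+/+ and 0.53 (SE 0.11, adjusted p = 0.00407) in Sp1-/- cells, under 2-fold in both, and Alas1 passed the full test in none of the comparisons made. A second, dimmer Alas1 probe was highest in Sp1-/- HE1, at 9.40 and 9.87, and Sp1-/- progenitors, at 9.75 and 9.70, against 9.17 and 9.19 in Sp1+/+ progenitors, so the 2 probes of Alas1 differ in the direction of the genotype difference in progenitors.

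The difference between the Alas2 and Alas1 probes was taken on each array, as a description with no test, and its level carries the affinities of the probes. In Sp1+/+ cells Alas2 minus Alas1 was -3.83 and -2.76 (Flk1+ cells), -3.85 and -5.50 (HE1), -2.78 and -3.66 (HE2), and -2.11 and -0.66 (progenitors). Sp1-/- cells had -5.01 and -4.94, -5.68 and -5.36, -1.87 and -2.29, and 2.00 and 1.74 in the same order. From Flk1+ cells to progenitors the mean difference moved by 1.91 in Sp1+/+ and by 6.84 in Sp1-/- cells, towards Alas2 in both. Progenitors did not overlap any other population within a genotype. The Sp1-/- arrays lay below the Sp1+/+ arrays in Flk1+ cells and above them in HE2 and progenitors, and the genotypes overlapped in HE1.

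**Figure D2:**
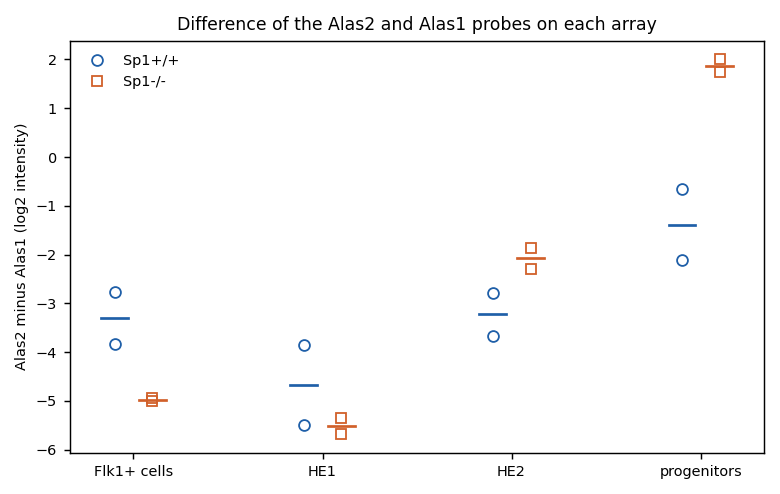
Log2 intensity of the Alas2 probe minus that of the Alas1 probe (vertical axis) on each array, by population (horizontal axis), for Sp1+/+ (blue circles) and Sp1-/- (orange squares), with short bars at the mean of 2 arrays. Sp1-/- progenitors sit at 2.00 and 1.74, above the Sp1+/+ progenitors at -2.11 and -0.66, and the highest of the other arrays, in Sp1-/- HE2, is at -1.87.

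Alad, which joins 2 aminolevulinate molecules into porphobilinogen, had log2 intensities in Sp1+/+ cells of 11.38 and 11.45 (Flk1+ cells), 11.09 and 11.39 (HE1), 11.72 and 11.64 (HE2), and 11.74 and 12.46 (progenitors). The Sp1-/- values were 10.96 and 11.17, 11.04 and 11.10, 11.87 and 11.96, and 13.72 and 13.95. The Sp1-/- progenitor arrays were above all others by more than 1. Alad rose 3.78-fold from HE2 to progenitors in Sp1-/- cells (1.92, SE 0.19, adjusted p = 0.000105), while in Sp1+/+ cells the same step gave 0.42 (SE 0.19).

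Uros, the synthase that closes the ring of uroporphyrinogen III, was at 10.26 and 10.47 (Sp1+/+ Flk1+ cells), 10.44 and 10.38 (HE1), 10.72 and 10.75 (HE2), and 11.33 and 12.11 (progenitors). Its Sp1-/- values were 10.53 and 10.76, 10.40 and 9.80, 11.30 and 11.15, and 14.00 and 13.97. Progenitors were the highest population in both genotypes and did not overlap the others. Uros rose from Flk1+ cells to progenitors by 2.56-fold in Sp1+/+ cells (1.35, SE 0.23, adjusted p = 0.00124) and by 10.1-fold in Sp1-/- cells (3.34, SE 0.23, adjusted p = 8.08e-07). Besides Alas2 it was the other enzyme that rose from HE1 to HE2 in Sp1-/- cells, by 2.18-fold (1.13, SE 0.23, adjusted p = 0.00608), and it fell under 2-fold there, at 0.82, without Sp1-/- HE1 replicate 2. Its Sp1+/+ rise likewise came to 0.97 without progenitor replicate 2.

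Urod, which removes carboxyl groups from uroporphyrinogen, changed less. In Sp1+/+ cells its log2 intensities were 14.15 and 14.05 (Flk1+ cells), 13.56 and 13.34 (HE1), 13.88 and 13.79 (HE2), and 14.34 and 14.67 (progenitors). Its Sp1-/- values were 14.43 and 14.28, 13.79 and 14.04, 14.18 and 14.33, and 15.62 and 15.61. HE1 was its lowest population in both genotypes. The Sp1-/- arrays were above the Sp1+/+ arrays in each of the 4 populations, as for 27.8%, 22.9%, 24.1% and 34.1% of all genes in Flk1+ cells, HE1, HE2 and progenitors. The Sp1-/- rise from HE2 to progenitors was 2.57-fold (1.36, SE 0.13, adjusted p = 8.17e-05), and in Sp1+/+ cells the step was 0.67 (SE 0.13, adjusted p = 0.0209), under 2-fold.

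The last 3 enzymes act at or in mitochondria. Cpox, which oxidises coproporphyrinogen, was lowest in HE1 in both genotypes. Its log2 intensities in Sp1+/+ cells were 12.37 and 12.42 (Flk1+ cells), 11.58 and 11.61 (HE1), 11.90 and 11.70 (HE2), and 12.25 and 13.08 (progenitors). Sp1-/- cells had 12.31 and 11.89, 11.41 and 10.76, 11.96 and 11.64, and 14.21 and 14.15. HE1 did not overlap Flk1+ cells in either genotype. The drop from Flk1+ cells to HE1 passed the test in Sp1-/- cells (log2 change -1.01, SE 0.26, adjusted p = 0.0135), though not without Sp1-/- Flk1+ replicate 1 or HE1 replicate 2, at -0.81 and -0.69, with the processed signal, at -0.83, or with only the arrays compared in the fit, at -1.02. In Sp1+/+ cells the drop was -0.80 (SE 0.26, adjusted p = 0.0477). The difference between the 2 drops was -0.21 (95% interval -1.04 to 0.61), not past the interaction test. From HE2 to progenitors Cpox rose 5.21-fold in Sp1-/- cells (2.38, SE 0.26, adjusted p = 0.000181), against 0.87 in Sp1+/+ cells.

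Ppox, the oxidase that makes protoporphyrin, stayed between 9.36 and 10.38 on all arrays but 2. In Sp1+/+ cells its log2 intensities were 9.64 and 9.88 (Flk1+ cells), 9.70 and 9.36 (HE1), 9.89 and 9.69 (HE2), and 9.99 and 10.31 (progenitors). The Sp1-/- values were 10.16 and 10.17, 9.70 and 9.89, 10.17 and 10.38, and 12.12 and 12.08. The 2 Sp1-/- progenitor arrays stood alone above 12. From HE2 to progenitors Ppox rose 3.54-fold in Sp1-/- cells (1.82, SE 0.15, adjusted p = 3.97e-05), and the Sp1+/+ step was 0.36 (SE 0.15).

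Fech, the ferrochelatase that completes heme, was graded over the 4 populations. Its log2 intensities in Sp1+/+ cells were 10.75 and 10.89 (Flk1+ cells), 11.74 and 11.74 (HE1), 12.16 and 12.38 (HE2), and 12.56 and 13.18 (progenitors). Its Sp1-/- values were 10.61 and 10.65, 11.46 and 11.70, 12.15 and 12.48, and 14.15 and 14.02. In each genotype every population lay above the one before it without overlap, which none of the other 8 enzymes showed. The steps in Sp1+/+ cells were 0.92, 0.53 and 0.60, each under 2-fold, and their sum was a rise of 4.14-fold (2.05, SE 0.18, adjusted p = 9.43e-06). The steps in Sp1-/- cells were 0.95, 0.74 and 1.77, of which the last passed the test (adjusted p = 0.00012), and the whole rise was 11-fold (3.46, SE 0.18, adjusted p = 1.09e-07).

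Hmox1, the inducible heme oxygenase, had its lowest values in Sp1-/- progenitors. Its log2 intensities in Sp1+/+ cells were 12.35 and 12.37 (Flk1+ cells), 12.11 and 13.98 (HE1), 12.32 and 13.20 (HE2), and 11.98 and 12.39 (progenitors). Sp1-/- cells had 11.62 and 11.88, 13.03 and 12.55, 11.90 and 11.97, and 10.98 and 10.90. The Sp1-/- progenitors were the lowest of all 8 groups, and HE1 was the highest Sp1-/- population. The replicates of Sp1+/+ HE1 were 1.87 apart, the widest gap of any enzyme in any group. A second, dimmer Hmox1 probe also had a wide gap there, at 8.86 and 10.52. Its mean was lowest in Sp1-/- progenitors, at 8.02 and 8.37, which overlapped Sp1-/- Flk1+ cells at 8.25 and 8.86. No comparison of Hmox1 passed the test. The Sp1-/- change from HE2 to progenitors was -1 (SE 0.47, adjusted p = 0.196), and the difference between HE1 and Flk1+ cells was 1.04 (SE 0.47, adjusted p = 0.131). The latter was called without either Sp1+/+ HE1 replicate, where it stayed at 1.04 and only the spread shared by the groups changed.

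The enzymes called at each step were then counted over the list. In Sp1+/+ cells none of the 9 enzymes passed the test from Flk1+ cells to HE1 (8.55% of all genes did), none from HE1 to HE2 (3.31%) and 1, Alas2, from HE2 to progenitors (1.74%, and 1.02% upwards). Over the whole span from Flk1+ cells to progenitors Alas2, Uros and Fech rose, 3 of 9 against 8.59% of all genes (4.31% upwards), with a median change of 0.45 over the 9 against -0.01 over all genes. At the same p without the 2-fold minimum, 3, 1 and 5 enzymes passed in the 3 Sp1+/+ steps, against 23.8%, 12.8% and 6.69% of all genes, and 5 passed over the whole span, against 21%.

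In Sp1-/- cells 1 of 9 enzymes, Cpox, fell from Flk1+ cells to HE1 (9.49% of all genes passed, 4.87% downwards). From HE1 to HE2 Alas2 and Uros rose (5.61%, and 2.08% upwards), and from HE2 to progenitors 7 of 9 rose, all but Alas1 and Hmox1 (5% of all genes passed, 2.33% upwards). The same 7 enzymes rose from Flk1+ cells to progenitors (12.3% passed, 5.7% upwards), with a median change of 2.08 over the 9 against 0.01 over all genes. These 2 comparisons share the progenitor arrays. All 7 calls held in each of the 2 comparisons when any 1 array was left out.

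The genotypes were then compared within each population. In progenitors 7 of the 9 enzymes were higher in Sp1-/- cells, against 4.1% of all genes past the test and 1.51% past it upwards. With Student's t-test, which takes each gene's spread from the arrays compared alone, 1 of the 9, Ppox, passed. A spread taken from so few arrays is imprecise. The authors' methods give limma for the arrays, and also name Student's t-test for comparing the genotypes without saying for which data. Alas2 was 8-fold higher (log2 difference 3, SE 0.56, adjusted p = 0.00489), Uros 4.81-fold (2.27, SE 0.23, adjusted p = 0.000112), Ppox 3.86-fold (1.95, SE 0.15, adjusted p = 1.78e-05) and Alad 3.33-fold (1.74, SE 0.19, adjusted p = 0.000195). Cpox was 2.86-fold higher (1.52, SE 0.26, adjusted p = 0.0032), Fech 2.32-fold (1.21, SE 0.18, adjusted p = 0.00128) and Urod 2.16-fold (1.11, SE 0.13, adjusted p = 0.000279). In all 7 both Sp1-/- arrays lay above both Sp1+/+ arrays, as they did for 34.1% of all genes, and the median over the 9 was 1.52 against 0.02 over all genes. Alas1 differed by -0.26 (95% interval -0.50 to -0.01) and Hmox1 by -1.25 (95% interval -2.28 to -0.21, adjusted p = 0.118), neither past the test.

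**Figure D3:**
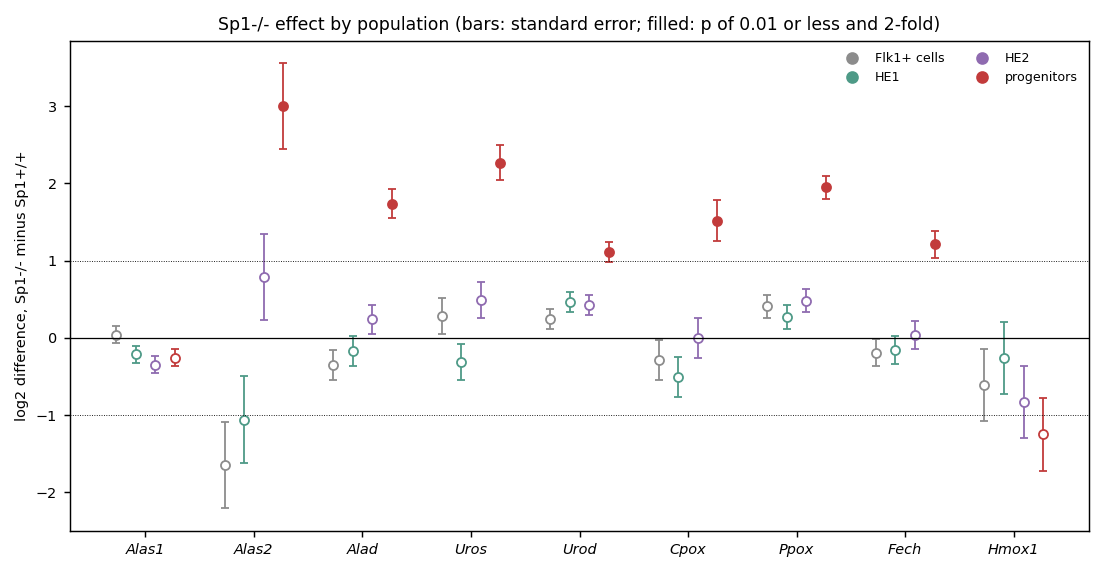
Log2 difference between Sp1-/- and Sp1+/+ cells (vertical axis) for each enzyme (horizontal axis) in Flk1+ cells, HE1, HE2 and progenitors, with bars of 1 standard error from the limma fit and dotted lines at 2-fold. Filled points passed p of 0.01 and 2-fold; they are the 7 progenitor values from 1.11 for Urod to 3 for Alas2, and no point of another population is filled.

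Sp1+/+ progenitor replicate 2 was above replicate 1 in all 9 enzymes, by 0.13 to 1.58 with a median of 0.62, while 49.3% of all genes were higher in replicate 2. The erythroid sum was 18.55 in replicate 1 and 19.94 in replicate 2, and the endothelial sum 14.95 and 13.20. In Sp1-/- progenitors the erythroid sum was 20.83 and 20.78 and the endothelial sum 11.90 and 12.17. Of the 9 erythroid markers tested, Epor, Slc4a1 and Rhag were called higher in Sp1-/- progenitors and none was called lower, with a median difference of 1.68. The others, the globins and Ermap, were not called, but their Sp1-/- progenitor arrays also lay above the Sp1+/+ arrays, as for 34.1% of all genes. Hba-x was at 18.26 to 18.29 against 14.58 to 16.83, and Hbb-bh1 at 18.89 to 18.91 against 17.75 to 18.7. Of the 5 megakaryocyte markers Pf4, Gp9, Gp1bb and Gp6 were higher and none lower (median 1.17), and their sum was 11.31 and 11.68 in Sp1+/+ and 13.13 and 12.55 in Sp1-/- progenitors. Csf1r and Fcgr3 were called higher among the 7 macrophage and myeloid markers. The means of the others, Mpo, Mrc1, Adgre1, Itgam and Lyz2, were lower in Sp1-/- progenitors, each by less than 2-fold. Of these Mpo was at 14.9 in Sp1+/+ and 13.96 in Sp1-/- progenitors. The sums of the 7 were 15.66 and 15.46 in Sp1+/+ and 15.31 and 15.23 in Sp1-/- progenitors. Lower in Sp1-/- progenitors were Cdh5, Esam and Ramp2 of the 6 endothelial markers, Col1a1 (-4.7) and Col3a1 (-2.39) of the 6 mesenchymal markers, Nkx2-5 of the 4 cardiac markers, and Kit (-1.23), 1 of the sort markers. Of all genes, 4.1% passed this genotype test in progenitors and 1.51% passed it upwards. Fewer cells of a type and less RNA per cell cannot be told apart in these bulk samples, and the part of these other cell types in the enzyme differences was not tested. Against Sp1+/+ progenitor replicate 2 alone, Urod and Fech came under 2-fold, at 0.94 and 0.91, and the other 5 enzymes were still called. Without replicate 2 all 7 were called.

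**Figure D4:**
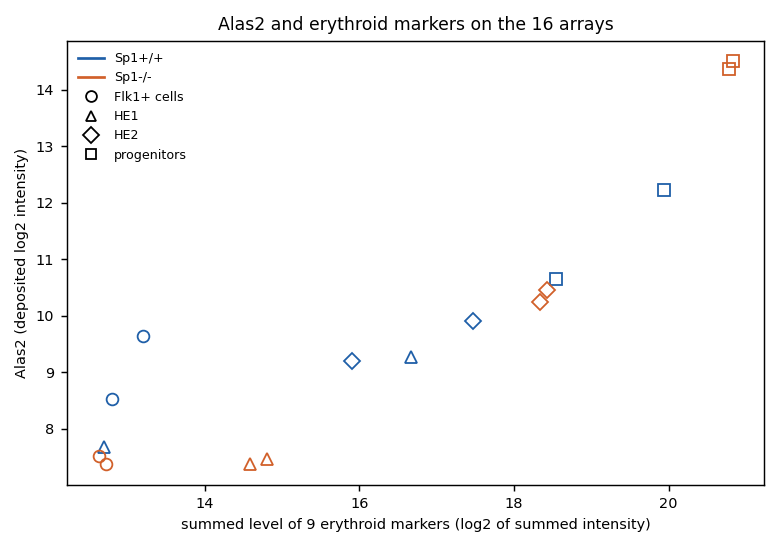
Alas2 log2 intensity (vertical axis) against the log2 of the summed intensity of 9 erythroid markers (horizontal axis) on the 16 arrays, with color for genotype and symbol for population. In progenitors the sum is mostly globin signal. Sp1-/- progenitors (14.51 and 14.37) lie at the top right, Sp1+/+ progenitors (10.65 and 12.23) below them, and Sp1+/+ progenitor replicate 1 close to the Sp1-/- HE2 arrays (10.45 and 10.25).

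Outside progenitors no enzyme passed the test in Flk1+ cells (1.64% of all genes did), HE1 (2.09%) or HE2 (1.95%), nor in the mean of the 3 effects (1.07%). The median difference over the 9 enzymes was -0.19, -0.21 and 0.24 in the 3 populations, against 0.01 over all genes in each. Without the 2-fold minimum, Urod passed in HE1 (0.46, SE 0.13, adjusted p = 0.0486) and in HE2 (0.42, SE 0.13, adjusted p = 0.101), and Ppox in HE2 (0.48, SE 0.15, adjusted p = 0.0969), 1 and 2 of the 9 enzymes against 12.9% and 9.03% of all genes. In the mean of the 3 effects Urod was higher in Sp1-/- cells by 0.38 (SE 0.08, adjusted p = 0.00491) and Ppox by 0.38 (SE 0.09, adjusted p = 0.00928), both about 1.3-fold, 2 of 9 against 20.7% of all genes.

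In Flk1+ cells and HE1 both Sp1-/- arrays of Alas2 lay below both Sp1+/+ arrays, as for 23.8% and 22.1% of all genes, and neither difference passed the test. It was -1.65 in Flk1+ cells (SE 0.56, 95% interval -2.89 to -0.40, adjusted p = 0.118) and -1.06 in HE1 (SE 0.56, 95% interval -2.30 to 0.19). In HE2 it was 0.79 (SE 0.56, 95% interval -0.45 to 2.04). In Flk1+ cells Alas2 was called lower when only the 4 Flk1+ arrays were fitted, at an unadjusted p of 0.00777. It was also called when Sp1+/+ Flk1+ replicate 1, either Sp1+/+ HE1 replicate or either Sp1+/+ progenitor replicate was left out. Without an HE1 or progenitor array the difference stayed at -1.65 and only the spread shared by the groups changed, so these calls are not further support for it. The erythroid sums in Flk1+ cells were 12.8 and 13.2 in Sp1+/+ and 12.73 and 12.63 in Sp1-/- cells, and the endothelial sums 13.72 and 14.79 against 13.44 and 13.57. In HE1 the value rests on an Sp1+/+ pair at 9.27 and 7.68 whose erythroid sums were 16.67 and 12.7, and the difference was called without Sp1+/+ HE1 replicate 2, at -1.85.

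The Hmox1 differences between Sp1-/- and Sp1+/+ cells were -0.61 (Flk1+ cells), -0.26 (HE1), -0.83 (HE2) and -1.25 (progenitors). Both Sp1-/- arrays lay below both Sp1+/+ arrays in Flk1+ cells, HE2 and progenitors, as for 23.8%, 21.3% and 28.4% of all genes. Fitted on the 4 progenitor arrays alone, the progenitor difference was called at an unadjusted p of 0.00032. It was also called without either Sp1+/+ HE1 replicate, where it stayed at -1.25 and only the spread shared by the groups changed. In HE1 the value was 0.68 without Sp1+/+ replicate 2 and was called at -1.19 without replicate 1.

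Whether the Sp1-/- difference in progenitors departed from that in the other populations was tested directly. Against Flk1+ cells 6 of 9 enzymes departed upwards (3.82% of all genes passed, 1.45% upwards), namely Alas2 (4.65, SE 0.80, adjusted p = 0.00825), Alad, Uros, Cpox, Ppox and Fech, with a median of 1.54 over the 9 against 0.01 over all genes. Against HE1 the same 6 departed (3.06%, and 1.16% upwards), with Alas2 at 4.06 (SE 0.80, adjusted p = 0.0212) and Uros at 2.58 (SE 0.33, adjusted p = 0.00231). Against HE2, which is also the test of whether the last step differs between genotypes, 5 departed (1.59%, and 0.681% upwards), Alad, Uros, Cpox, Ppox and Fech. Alas2 was at 2.20 (SE 0.80, adjusted p = 0.325), and was called without Sp1+/+ progenitor replicate 2, at 2.99. It was also called without either Sp1+/+ HE1 replicate, where it stayed at 2.20 and only the spread shared by the groups changed. Fech against HE2 was under 2-fold, at 0.86, without Sp1+/+ progenitor replicate 1. Urod was at 0.86, 0.65 and 0.69 in the 3 tests, under 2-fold each time. The 3 tests share the progenitor arrays. The earlier steps gave no enzyme whose change differed between genotypes, neither from Flk1+ cells to HE1 (1.6% of all genes) nor from HE1 to HE2 (0.743%), where Alas2 was at 1.85 (SE 0.80, adjusted p = 0.6).

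Genes that work beside the enzymes were counted from lists drawn up for the pathway. Of 13 mitochondrial partners of heme synthesis, 5 were higher in Sp1-/- progenitors and none was lower, with a median difference of 0.66 against 0.02 over all genes. Of all genes, 4.1% passed in progenitors and 1.51% passed upwards. Slc25a37, the mitochondrial iron importer mitoferrin, was 5.94-fold higher (2.57, SE 0.23, adjusted p = 4.46e-05), and the glycine carrier Slc25a38 2.31-fold (1.21, SE 0.14, adjusted p = 0.000274). Tmem14c, which is needed for protoporphyrinogen transport, was 2.21-fold higher, and the ABC transporters Abcb10 and Abcb6 2.14-fold and 2.05-fold. The log2 intensities of Slc25a37 were 11.78 and 12.78 in Sp1+/+ and 14.81 and 14.89 in Sp1-/- progenitors. Outside progenitors 1 of the 13 was called in HE1 and 1 in HE2, in both cases Tspo, the outer mitochondrial membrane protein once proposed as a porphyrin carrier, which was lower in Sp1-/- cells by a log2 difference of -1.47 (SE 0.16, adjusted p = 0.000296) and -1.02 (SE 0.16, adjusted p = 0.00302). Its progenitor levels overlapped, at 12.41 and 12.79 in Sp1+/+ and 12.44 and 12.39 in Sp1-/- cells. Past the genotype test in HE1 and HE2 were 2.09% and 1.95% of all genes.

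Of 6 heme carriers and exporters, only Hebp1, a cytosolic heme-binding protein, was higher in Sp1-/- progenitors (1.55, SE 0.34, adjusted p = 0.0116). Slc48a1, the heme transporter of endosomes and lysosomes, rose from Flk1+ cells to progenitors in both genotypes, 8.14-fold in Sp1+/+ and 6.11-fold in Sp1-/- cells. Of the 3 partners of Hmox1 in breakdown, the biliverdin reductases Blvra and Blvrb rose over that span in both genotypes, and Blvrb was 3.24-fold higher in Sp1-/- progenitors (1.70, SE 0.22, adjusted p = 0.000535). The paralog Hmox2, the heme oxygenase made in most cells without induction, passed the test in none of these comparisons. From Flk1+ cells to progenitors 4.31% of all genes passed upwards in Sp1+/+ and 5.7% in Sp1-/- cells. Between the genotypes in progenitors 1.51% passed upwards.

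Among 10 regulators of the enzyme genes, 2 were higher in Sp1-/- progenitors (1.51% of all genes were), with a median difference of 0.10 over the list. They were Klf1, an erythroid factor (1.90, SE 0.59, adjusted p = 0.0574), and Eif2ak1, the heme-regulated kinase that slows translation when heme is short (1.19, SE 0.10, adjusted p = 2.92e-05). Gata1, the factor that Alas2 is known to require in red cells, lay at 13.83 and 14.66 in Sp1+/+ and 15.60 and 15.67 in Sp1-/- progenitors, without overlap but not past the test. It rose from HE2 to progenitors in both genotypes, by 3.02 in Sp1+/+ (SE 0.64, adjusted p = 0.032) and 2.56 in Sp1-/- cells (SE 0.64, adjusted p = 0.0216). Bach1 and Nfe2l2, which are known to repress and activate Hmox1, were called in neither genotype comparison within progenitors nor outside them.

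Of 8 other targets of NRF2 or BACH1, listed beside Hmox1, none passed the test in progenitors (4.1% of all genes did). All 8 differences there were below 0, with a median of -0.22 against 0.02 over all genes. In HE1 Nqo1, a quinone reductase, and Gclm, a subunit of the enzyme that starts glutathione synthesis, were lower in Sp1-/- cells (-2.06, SE 0.21, adjusted p = 0.000217, and -1.13, SE 0.16, adjusted p = 0.00221), and in HE2 Nqo1 was lower (-1.65, SE 0.21, adjusted p = 0.000902). Past the genotype test were 2.09% of all genes in HE1 and 1.95% in HE2. From Flk1+ cells to progenitors 5 of the 8 rose in each genotype, Nqo1, Gclm, Srxn1, Slc7a11 and Fth1, against 4.31% (Sp1+/+) and 5.7% (Sp1-/-) of all genes. Hmox1 differed by -0.17 in Sp1+/+ and -0.81 in Sp1-/- cells over that span.

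The genes whose pattern over the 16 arrays was most like that of an enzyme were found among 4756 named genes with an SD of at least 0.5, as a description. The 16 points are 8 groups of 2 arrays and are not independent. For Alas2 they were Pfkfb4 (Pearson's r 0.978), Ifih1 (0.973), Cpne7 (0.968), Epb42, a protein of the red cell membrane (0.966), and Klf1 (0.966). For Alas1 they were Akr1b8 (0.952), Pld1 (0.946), Nod1 (0.935), Acot9 (0.932) and Mocos (0.929). For Hmox1 they were Grin3a (0.931), Gpx3 (0.91), Cpt1c (0.899), Tubb6 (0.879) and Impact (0.873). Within the 9 enzymes Alas2 had r of 0.81 to 0.95 with the 6 enzymes from Alad to Fech, -0.17 with Alas1 and -0.64 with Hmox1 over the same arrays.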

How the data were processed

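RNA from 16 samples was hybridised to one-color Agilent SurePrint G3 mouse arrays, and the deposited text files hold the median spot intensity and background, read with Feature Extraction (10.7.1.1 per the labels). The authors' methods give limma normexp background correction with offset 16 and quantile normalization. The deposited log2 values equal normexp with offset 50 (largest difference 0.005, against 1.63 with offset 16) and were used as they are. Outlier spots (95 to 182 per array) were set to missing, control spots were left out, and spots of 1 probe were averaged. Of 37932 target names, 20869 matched a RefSeq gene by accession and 6 by symbol. The brightest probe stood for a gene. Genes with log2 of at least 6 on 1 or more arrays (37154 of 37208) were fitted in limma 3.58.1 under R 4.3.3 with 8 group coefficients and 8 residual degrees of freedom. The calls were unadjusted p of 0.01 or less with 2-fold. Only 2 arrays per group limit the precision.

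The genes named are the 9 enzymes, Sp1, the members of the pathway and marker lists, and the 5 nearest patterns of Alas1, Alas2 and Hmox1. The members and lists were chosen with earlier results of these data known. Alternatives were the offset, the processed signal, filters, the mean over probes, the replicate number as a block, adjusted p, no fold minimum, only the arrays compared, Student's t-test and leaving out each array. The fit was tested on simulated data. Some listed genes are not reported here.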

Additional observations from a re-analysis of the deposited data

Results flagged for a closer look

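The difference between Sp1-/- and Sp1+/+ cells was larger in progenitors than in another population for 17 combinations of enzyme and population, by the limma test of the difference of effects (log2). The 3 sets of values share the progenitor arrays. Against Flk1+ cells the differences of effects were 4.65 for Alas2, 2.09 for Alad (SE 0.27, adjusted p = 0.00203), 1.99 for Uros (SE 0.33, adjusted p = 0.00694), 1.81 for Cpox (SE 0.37, adjusted p = 0.0194), 1.54 for Ppox (SE 0.21, adjusted p = 0.00252) and 1.41 for Fech (SE 0.26, adjusted p = 0.0114). Against HE1 they were 4.06 for Alas2, 1.91 for Alad (adjusted p = 0.00428), 2.58 for Uros, 2.02 for Cpox (adjusted p = 0.0154), 1.68 for Ppox (adjusted p = 0.0022) and 1.38 for Fech (adjusted p = 0.0171). Against HE2 they were 1.5 for Alad (adjusted p = 0.0369), 1.78 for Uros (adjusted p = 0.0388), 1.52 for Cpox (adjusted p = 0.112), 1.46 for Ppox (adjusted p = 0.0139) and 1.17 for Fech (adjusted p = 0.0777).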

How the results depend on the processing

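Of 144 enzyme values, all kept their direction and side of the threshold with offset 16, and 135 with the processed signal. All were also kept without the level minimum and with probes well above background only. These 2 filters could not move the enzyme values, as every enzyme probe was well above background on every array. With the mean over probes 140 were kept. Only Alas1 and Hmox1 have a second probe, so only their log2 changes could move, and the 4 that changed were of Alas1. The replicate number as a block changed no call (progenitors 7 of 9, Alas2 3). That block holds 1 replicate shift for both genotypes, so it does not test a pairing of populations within a genotype. The deviations of same-numbered replicates correlated between -0.17 and 0.50, over 0.1 in 5 of 12 comparisons, with 0.50 for Sp1+/+ HE2 against HE1. The samples were treated as unpaired. The limits are 2 arrays per group, 1 clone, and a genotype that cannot be told apart from its slide. The causes of the changes below were not tested.

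Without a fold minimum the enzymes called were 1 in HE1, 2 in HE2 and 2 in the mean outside progenitors in place of 0, against 12.9%, 9.03% and 20.7% of all genes. In Sp1+/+ cells they were 3 from Flk1+ cells to HE1 and 1 from HE1 to HE2 in place of 0, 5 from HE2 to progenitors in place of 1, and 5 from Flk1+ cells to progenitors in place of 3, against 23.8%, 12.8%, 6.69% and 21% of all genes. In Sp1-/- cells they were 4 from Flk1+ cells to HE1 in place of 1 and 6 from HE1 to HE2 in place of 2, against 26.7% and 18.9%. With Student's t-test, run for differences between 2 groups only, the progenitor count was 1 (Ppox) in place of 7. Both Sp1+/+ counts for progenitors (against HE2 and Flk1+ cells) were 0 by that test. Its Sp1-/- counts were 0 from Flk1+ cells to HE1 and 1 from HE1 to HE2. With adjusted p of 0.05 the progenitor effect against HE2, and the same last step compared between genotypes, gave 3 in place of 5, and Sp1+/+ HE2 to progenitors gave 0. With only the arrays compared, that step gave 0 and the Flk1+ genotype difference gave 1 (Alas2).

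Leaving out 1 array at a time gave 0 to 1 enzymes for the genotype difference in Flk1+ cells, 0 to 1 in HE1, 0 in HE2 and outside progenitors, and 5 to 8 in progenitors. An array of a group not compared moves a count only through the spread shared by the groups. The progenitor effect gave 6 to 7 against Flk1+ cells, 6 to 7 against HE1 and 4 to 6 against HE2. The Sp1+/+ counts were 0 to 1, 0 to 2, 0 to 3 for the 3 steps and 1 to 4 for the whole span, and the Sp1-/- counts 0 to 2, 1 to 3, 7 and 7. The steps compared between genotypes gave 0, 0 to 2 and 4 to 6. Alas2 minus Alas1 in progenitors was 1.74 to 2.00 in Sp1-/- and -2.11 to -0.66 in Sp1+/+ cells, and with the mean over probes 3.29 in place of 1.87 and 0.44 in place of -1.38.

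The enzyme values that changed sign were all uncalled with every array in the fit. With the processed signal Alas1 in Flk1+ cells was -0.19, Fech in HE2 -0.10, the Alas1 progenitor effect against Flk1+ cells 0.02 and Sp1+/+ Uros from Flk1+ cells to HE1 -0.06. With the mean over probes the Alas1 genotype difference was -0.10 in Flk1+ cells, 0.19 in HE1 and 0.14 in progenitors, and its progenitor effect against Flk1+ cells 0.25. With 1 array left out at a time, the Hmox1 genotype difference in HE1 ran from -1.19 to 0.68 and that of Fech in HE2 from -0.12 to 0.21. The Alas1 progenitor effect ran from -0.17 to 0.07 against HE1 and from -0.02 to 0.20 against HE2, and that of Hmox1 against HE2 from -0.86 to 0.02. The Sp1+/+ changes from Flk1+ cells to HE1 ran from -1.41 to 0.18 for Alas2, -0.06 to 0.15 for Uros and -0.25 to 1.62 for Hmox1. Sp1+/+ Hmox1 from HE1 to HE2 ran from -1.22 to 0.65, and Alas1 from HE2 to progenitors from -0.03 to 0.14. From Flk1+ cells to progenitors Sp1+/+ Cpox ran from -0.14 to 0.69 and Hmox1 from -0.38 to 0.03. Sp1-/- Alas2 from Flk1+ cells to HE1 ran from -0.09 to 0.05.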
